A study of Danio rerio with 6 samples.

Results

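Heat shock proteins and their partner chaperones were followed at the RNA level in ZMEL1, a cell line established from a zebrafish melanoma. Members were taken by name: gene rows whose symbol, with letter case ignored, begins with hsp, dnaja, dnajb, dnajc or bag and a digit, together with the chaperonin subunits tcp1 and cct numbered from 2 to 8. The rule found 106 of the 32520 gene rows. These rows carry 96 distinct symbols, because 10 symbols are each shared between rows, 20 rows in all. The lookup table gives some zebrafish genes the capitalised symbol of a mammalian relative, so rows with the same symbol are told apart here by their Ensembl identifier. The names bring in a few genes that are not chaperones, such as HSPG2, the matrix proteoglycan perlecan.

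Bulk RNA sequencing was done on cells starved for 2 h and then given recombinant human TGFB1 at 10 ng/mL or a vehicle of dilute acid with albumin for a further 2 h. There are 6 samples in the series, 3 labelled TGFB1 and 3 labelled Vehicle, and the triplicate is described as technical, so the spread between libraries may leave out variation between cultures. The count table names its 6 columns HN69 to HN74, and these names match no sample label. All 6 columns are therefore treated together as ZMEL1 libraries with no treatment attached, nothing here is given as a response to TGFB1, and treatment cannot be told apart from other differences between libraries.

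Column totals ran from 12319428 counts in HN71 to 18582009 in HN70, and between 19680 and 20668 rows had a count in a library. Levels are given as CPM, counts scaled to a column total of 1000000. The 2 rows with the most counts held 22.4% of the counts in HN69 and 33.8% in HN74, which lowers the CPM of nearly everything else in HN74. TMM scaling, a trimmed mean that compares the bulk of the genes, moved libraries by up to 0.23 log2 against each other, so statements on which library was highest are given on both scales. No pair of the 15 pairs of libraries agreed within counting noise. The chi-square per degree of freedom, where 1 is counting error alone, lay between 2.49 and 6.02. It was 3.03 to 3.40 within HN69 to HN71, 2.49 to 4.12 within HN72 to HN74 and 4.25 to 6.02 across these sets. What sets them apart was not tested. The neural crest marker crestin stood at 5487 to 7495 CPM and SOX10, a regulator of the pigment lineage, at 333.1 to 411.04 CPM, while leukocyte markers summed to at most 0.617 CPM, endothelial markers to at most 0.0812 CPM and erythrocyte markers to at most 0.0757 CPM. Epithelial markers summed to 12.1 to 19.3 CPM, nearly all from cdh1, the E-cadherin gene, muscle markers to 2.20 to 3.49 CPM and neuronal markers to 1.27 to 2.73 CPM. Melanin genes drew fewer reads than crestin and SOX10. TYR, the tyrosinase gene, lay between 19.6 and 21.9 CPM, pmela between 4.11 and 7.35 CPM and DCT between 0.601 and 1.85 CPM.

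Chaperones bind unfolded or partly folded proteins and help them reach or regain their shape. The HSP70 proteins bind short exposed stretches and are driven by J-domain co-chaperones of the DNAJ families, with nucleotide exchange helped by BAG and HSP110 proteins. HSP90 acts late on kinases and receptors, small heat shock proteins hold aggregating proteins, and the ring-shaped chaperonin CCT folds actin and tubulin. Several families have one form made all the time and a close relative switched on by heat shock factor under stress, and the endoplasmic reticulum and mitochondria have HSP70 and HSP90 or HSP60 proteins of their own.

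Together the members took a lowest 1.77%, a median 1.87% and a highest 1.97% of all gene counts across the 6 libraries. Of the 106 rows, 88 had a mean of 1 CPM or more over all libraries, 8 lay below that with some counts, and 10 had no count anywhere. Among all gene rows, 39.0% reached 1 CPM, against 83.0% of the members. The median of the mean CPM over the rows that reached it was 22.6 for members and 10.9 for all gene rows. Reads were concentrated on few rows: HSP90AB1, HSPA8 (ENSDARG00000068992) and HSP90AA1 held 53.4% of the members' summed CPM, and 23 rows had 100 CPM or more. CPM counts reads and is not corrected for transcript length, because no gene models of the files' build were used, so the values of different genes below compare reads drawn and not transcripts made.

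**Figure D1:**
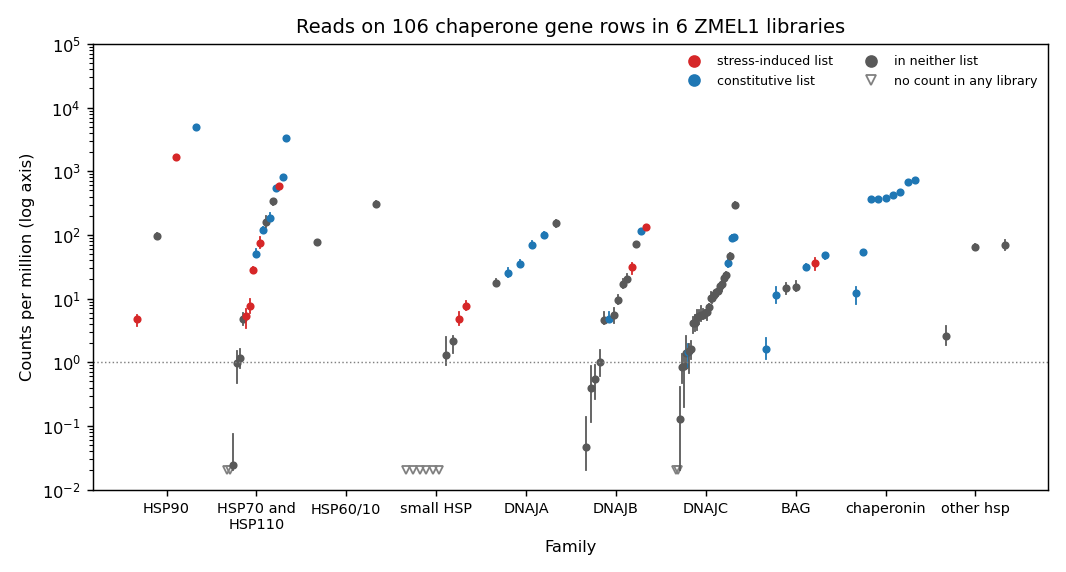
Mean CPM (points, log axis) of each of the 106 member rows by family, with vertical lines from the lowest to the highest of the 6 libraries, red for the stress-induced list, blue for the constitutive list and grey for the rest. Triangles mark the 10 rows with no count, 6 of them small heat shock protein rows, and the dotted line is 1 CPM; the lines are short for the rows with many reads and long below a few CPM.

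The cytosolic HSP90 genes were the most heavily read chaperones. HSP90AB1, the constitutive HSP90 beta (ENSDARG00000029150), had 5196 CPM in HN69, 5269 in HN70, 5052 in HN71, 4866 in HN72, 4875 in HN73 and 4670 in HN74, and only 9 gene rows of the table had a higher mean. Its highest library was 1.13 times its lowest on CPM and 1.06 times on the TMM scale. HSP90AA1 (ENSDARG00000024746), named for the alpha form that in mammals responds to heat, ranged from 1588 CPM in HN71 to 1797 in HN72 with a median of 1714. The row hsp90aa1.1 (ENSDARG00000010478), known in zebrafish for its part in muscle myosin folding, stayed between 3.76 and 5.56 CPM. In the RefSeq annotation of the GRCz12tu assembly hsp90aa1.1 and hsp90aa1.2 are adjacent genes with 0 coding genes between them, and reads that fit both copies may have been lost or split in counting.

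HSP90AB1 took between 73.0% and 76.0% of the reads on these 3 cytosolic HSP90 rows. The share was 72.98% in HN72 (95% Wilson interval 72.7% to 73.3%) and 76.03% in HN71 (75.7% to 76.3%), intervals that do not overlap. Intervals here and below cover counting error only, since reads copied by PCR are not independent molecules.

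Among cytosolic HSP70 genes the constitutive HSPA8 drew the most reads. The main HSPA8 row (ENSDARG00000068992) had 3477, 3507, 3339, 3329, 3220 and 3180 CPM in HN69 to HN74, a highest library 1.103 times the lowest. On the TMM scale HN74 was the highest and HN69 the lowest, 1.07-fold apart. Of the genes known as heat-inducible in zebrafish, hsp70.3 (ENSDARG00000021924) was read far more than its relatives: 573.1 CPM in HN69, 590.1 in HN70, 527.0 in HN71, 635.1 in HN72, 589.8 in HN73 and 576.6 in HN74. The inducible hsp70l (ENSDARG00000055723), the gene whose promoter is widely used for heat-driven transgenes, had 69.3, 81.0, 62.0, 92.3, 77.5 and 68.0 CPM in the same order. On CPM both were highest in HN72 and lowest in HN71, and on the TMM scale both were highest in HN72, with hsp70.3 lowest in HN69. By contrast hsp70.1 (ENSDARG00000029688) lay between 6.01 and 9.95 CPM and hspa1b (ENSDARG00000056210) between 3.49 and 6.83 CPM. The symbol hsp70.2 had no row. In the RefSeq annotation hsp70.1, hsp70.2 and hsp70.3 lie side by side with 0 coding genes between neighbours, and such near-identical copies make the division of reads among them uncertain.

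A second HSPA8 row (ENSDARG00000037403) and a row named HSPA2 (ENSDARG00000092362) also had their highest value in HN72, while the main HSPA8 row had its highest in HN70 on CPM and in HN74 on the TMM scale. The second HSPA8 row had 177.1, 183.7, 163.6, 222.9, 182.5 and 189.4 CPM in HN69 to HN74. HSPA2, in mammals a testis-enriched HSP70, had 150.1, 166.9, 134.9, 198.3, 166.03 and 157.3 CPM. In HN72 the TMM-scaled level over the median of the other 5 libraries was 1.34 for the second HSPA8 row, 1.31 for HSPA2 and 1.29 for hsp70l, but 1.03 for the main HSPA8 row. Whether these 2 rows are zebrafish copies of the named mammalian genes is not settled by the lookup table, and reads shared with close copies may enter their counts.

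**Figure D2:**
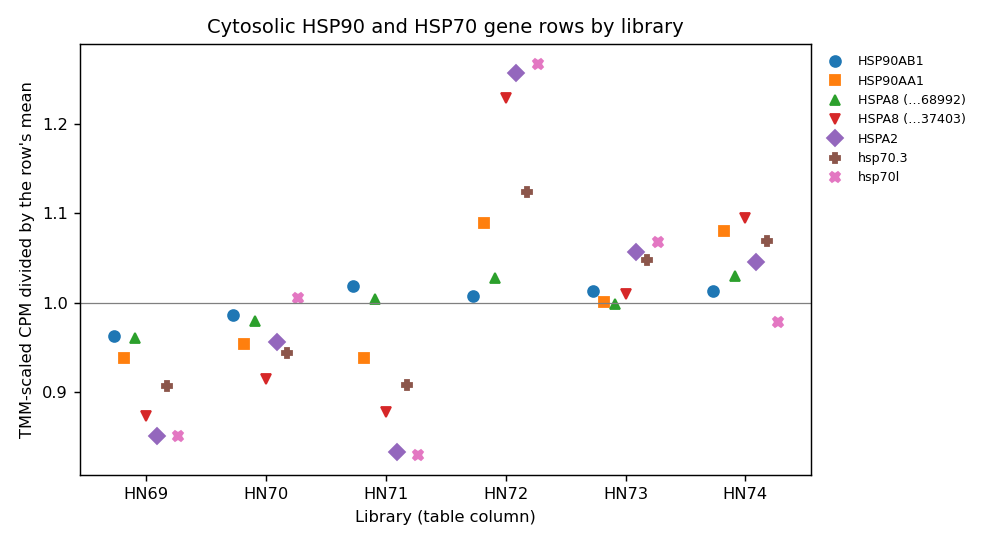
TMM-scaled CPM of 7 cytosolic HSP90 and HSP70 rows in each of the 6 libraries, divided by the row's own mean; each symbol is one row, and the digits in the key end the Ensembl identifier. In HN72 hsp70l, HSPA2 and the second HSPA8 row stand above all other points, while HSP90AB1 and the main HSPA8 row stay close to 1 in every library.

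The 2 HSPA8 rows together took 82.7% to 85.4% of the reads on the cytosolic HSP70 rows, counted with hsp70l, hsp70.1, hsp70.3 and hspa1b. The share was lowest in HN72, at 82.69% (Wilson interval 82.4% to 82.98%), and highest in HN71, at 85.41% (85.1% to 85.7%). With the main HSPA8 row alone in the numerator the median share was 79.6%, against 84.01% for both rows. HN71 and HN72 thus marked the ends of the range for HSP70 and for HSP90, but the low end for HSP90 was not resolved. There the interval of HN74, at 73.28% (73.01% to 73.54%), overlapped that of HN72, at 72.98% (72.7% to 73.3%). Because a share is taken within a library, it does not depend on the scaling. The HSP70 share was 84.8%, 84.3% and 85.4% in HN69 to HN71 and 82.7%, 83.4% and 83.7% in HN72 to HN74. The HSP90 share was 74.97%, 75.1% and 76.03%, then 72.98%, 74.7% and 73.28%. Both shares were thus lower in each of HN72 to HN74 than in any of HN69 to HN71. For HSP90 this order was not resolved at its boundary. There the interval of HN73 (74.46% to 75.01%) overlapped those of HN69 (74.69% to 75.25%) and HN70 (74.89% to 75.36%).

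**Figure D3:**
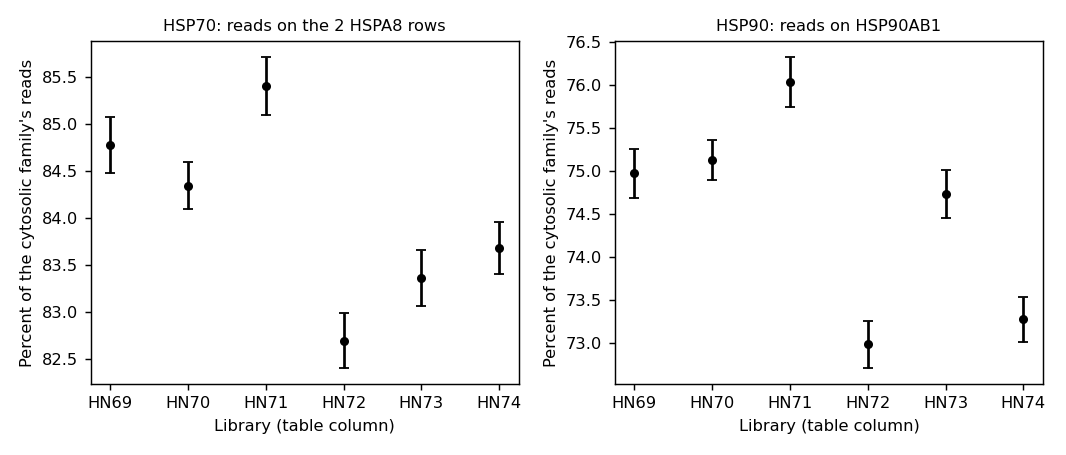
Percent of cytosolic HSP70 reads on the 2 HSPA8 rows (left) and of cytosolic HSP90 reads on HSP90AB1 (right) in each library, with 95% Wilson intervals as bars; the axes do not start at 0. HN71 is highest and HN72 lowest in both panels, but in the right panel the intervals of HN72 and HN74 overlap. The interval of HN73 in that panel also overlaps those of HN69 and HN70.

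HSP110 proteins, the exchange factors of HSP70, were also well read. HSPA4 (ENSDARG00000004754) ranged from 770.2 to 840.9 CPM with its highest value in HN72, and the other HSPA4 row (ENSDARG00000018989) from 107.0 to 132.4 CPM. HSPH1, heat-inducible in mammals, stayed between 25.7 and 31.4 CPM and HSPA4L between 3.82 and 5.97 CPM. HSPA14, which works at the ribosome, lay between 44.5 and 59.9 CPM. The distant relatives HSPA12A and HSPA12B reached at most 1.51 and 0.0757 CPM, and hspa12a.1 and hspa12a.2 had no count.

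Small heat shock protein rows drew few reads or none. HSPB1, the gene of the protein called HSP27 in mammals, was the most read, with 7.04 CPM in HN69, 8.18 in HN70, 7.14 in HN71, 9.28 in HN72, 6.59 in HN73 and 7.10 in HN74. HSPB8, the partner of BAG3, had 3.79 to 6.19 CPM and hspb6 1.41 to 2.60 CPM. The row hspb11 had 0.893 to 2.53 CPM, and its name does not settle whether it is a small heat shock protein. No count fell on HSPB2, HSPB3, HSPB7, hspb9, hspb9l or hspb15, of which HSPB2, HSPB3 and HSPB7 are known from muscle and heart. With 3 counts as the limit that a count of 0 allows, each of these lay below 0.0331 CPM over all libraries together and below 0.161 to 0.244 CPM in a single one.

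J-domain proteins of classes A and B supply the clients of HSP70. In class A the row named dnaja (ENSDARG00000051762) had 135.6 to 173.0 CPM, DNAJA2 94.6 to 109.3 CPM on one row (ENSDARG00000104066) and 64.9 to 79.2 CPM on the other (ENSDARG00000010745), and dnaja1 31.7 to 40.4 CPM. In class B dnajb1a (ENSDARG00000099383), a copy of the heat-inducible DNAJB1, drew 121.7 to 145.8 CPM. The second copy dnajb1b (ENSDARG00000041394) had 29.8, 31.9, 31.01, 36.8, 33.1 and 24.4 CPM in HN69 to HN74. Dnajb6a, an inhibitor of amyloid formation in its mammalian form, stood at 108.6 to 125.07 CPM against 4.30 to 6.06 CPM for dnajb6b. DNAJB13, a gene of sperm and cilia, stayed at or below 0.893 CPM. HN72 was the highest library on both scales for dnaja, dnaja1, dnajb1b, dnajb2 and the DNAJB12 row ENSDARG00000039363. On the TMM scale alone it was the highest for dnajb1a, dnajb6a and the DNAJA2 row ENSDARG00000010745. The other DNAJA2 and DNAJB12 rows, dnajb6b and DNAJB13 were highest in another library on both scales.

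Class C J proteins are specialists tied to one compartment or task, and 27 of their 32 rows reached 1 CPM. DNAJC1, of the endoplasmic reticulum membrane, led with 267.8 to 323.8 CPM. DNAJC5, cysteine string protein of secretory vesicles, had 85.07 to 100.4 CPM on its main row (ENSDARG00000004836) and 0.833 to 1.94 CPM on the other (ENSDARG00000042948). DNAJC7, which links HSP70 and HSP90, ranged from 79.2 to 99.3 CPM, and dnajc8, of the splicing machinery, from 31.2 to 44.3 CPM. DNAJC6, auxilin of neurons, reached at most 0.412 CPM, and DNAJC5B and DNAJC22 had no count in any library.

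BAG proteins release the substrate of HSP70. The row bag6 (ENSDARG00000075892) ranged from 42.04 to 50.5 CPM and the row BAG6 (ENSDARG00000077531) from 28.06 to 34.9 CPM; BAG6 proteins guide membrane proteins with exposed tails. BAG3, the stress-inducible member that directs aggregates to autophagy, had 34.5, 38.6, 28.2, 43.8, 36.5 and 39.8 CPM in HN69 to HN74. Its lowest and highest libraries, HN71 and HN72, were 1.55-fold apart, and their exact Poisson 95% intervals of 25.4 to 31.4 and 40.5 to 47.3 CPM do not overlap. The founding member bag1 had 11.6, 15.1, 9.58, 8.61, 13.1 and 9.63 CPM, a 1.75-fold range with its lowest value in HN72 and its highest in HN70 on both scales. BAG2 was the least read, at 1.14 to 2.42 CPM. HSPBP1, another exchange factor, had 59.3 to 71.5 CPM.

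The chaperonin rows were well read, apart from those of the second subunit. TCP1, the first subunit, ranged from 662.9 to 777.9 CPM, CCT6B from 627.2 to 717.7, CCT5 from 437.6 to 507.6, CCT8 from 396.4 to 436.8, CCT7 from 347.8 to 404.1, CCT4 from 331.6 to 397.8 and CCT3 from 335.3 to 393.8 CPM. Their proteins form rings with one copy of each subunit. The second subunit was the exception in reads: the row CCT2 (ENSDARG00000104674) had 47.97 to 58.5 CPM and the row cct2 (ENSDARG00000087206) 8.37 to 15.3 CPM. TCP1, the row with the most reads, drew 50.9 to 80.9 times as many as cct2, the row with the fewest, a ratio of reads and not of transcripts. How reads were divided between the 2 rows of the second subunit, which may overlap or be copies, is not given in the sources used here. On the TMM scale the highest and lowest libraries of 8 of the 9 rows were 1.07-fold to 1.12-fold apart. The row cct2 was the exception, with HN69 1.63 times HN73 on that scale and 1.83 times on CPM, one of the 5 widest CPM folds among members with a mean of 5 CPM or more.

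Chaperones of the endoplasmic reticulum, which rise in the unfolded protein response, were led by HSPA5, known as BiP, with 295.0 to 373.6 CPM. HSP90B1, its HSP90 partner, had 86.4 to 107.7 CPM and DNAJB11, a BiP co-chaperone, 14.6 to 20.2 CPM. DNAJC10, a disulfide reductase of the same compartment, had 11.2 to 15.03 CPM, and HSPA13, a minor HSP70 there, 0.822 to 1.62 CPM. DNAJB9, a strongly induced gene of that response, was almost unread on both of its rows, at most 0.137 CPM (ENSDARG00000016886) and at most 0.868 CPM (ENSDARG00000052072). The row dnajc3a, for the inhibitor P58IPK, had 6.74, 6.24, 4.87, 3.20, 4.19 and 5.99 CPM in HN69 to HN74, the widest fold between libraries, 2.103, of any member with a mean of 5 CPM or more. It was lowest in HN72, and so was dnajc3b, at 8.74 CPM against a highest 12.5 CPM.

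In the mitochondrial list HSPA9, called mortalin, ranged from 515.0 to 570.8 CPM, HSPD1, the HSP60 chaperonin, from 281.9 to 338.6 CPM, and HSPE1, its HSP10 lid, from 72.7 to 81.8 CPM. In the RefSeq annotation hspd1 and hspe1 are adjacent, with 0 coding genes between them. DNAJA3 had 22.1 to 30.4 CPM, dnaja3b 16.05 to 20.7 CPM and DNAJC11 42.3 to 51.2 CPM on its main row (ENSDARG00000011196). The other DNAJC11 row (ENSDARG00000102696) had 0.812 to 2.58 CPM. DNAJC15 and DNAJC19, partners of the protein import motor, had 13.07 to 20.8 and 2.88 to 5.23 CPM. The row dnajc30b, of the same list, had 0.686 to 1.94 CPM.

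Constitutive and stress-induced members were set apart by 2 lists drawn up from textbook roles. Each of the 30 constitutive rows reached 1 CPM, with a median of the mean CPM of 97.5, and 12 of the 14 stress-induced rows did, with a median of 18.03 over all 14. The exceptions were hspb9 and hspb15, which had no count. Summed over each list, the constitutive rows drew 5.05 times the reads of the stress-induced rows in HN72 and 5.86 times in HN71, with a median of 5.43. Leaving out the 3 constitutive rows with the most reads brought the median log2 ratio from 2.44 to 0.94, and leaving out HSP90AB1 and HSP90AA1 raised it to 3.31, so its size rests on a few rows. The stress-induced sum was itself carried by HSP90AA1 and hsp70.3.

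How far the libraries differed was read as the highest over the lowest CPM of a row. Of the 88 members with a mean of 1 CPM or more, 28 (31.8%) reached 1.5-fold, against 43.2% of the 12690 gene rows over the same minimum. On the TMM scale it was 26 members (29.5%) against 37.8% of all rows. Counting intervals are wide below a few CPM, and of the 71 members with a mean of 5 CPM or more 13 reached 1.5-fold (18.3%), against 23.6% of the 8866 gene rows at that minimum. On the TMM scale the shares at that minimum were 16.9% of members and 17.4% of all rows, close to each other. With 1 CPM as the minimum, the highest library exceeded the lowest by 25% for 62.5% of members and 78.9% of all rows, and reached 2-fold for 7.95% and 16.4%. Within the lists the median fold was 1.21 over the 30 constitutive rows and 1.48 over the 12 stress-induced rows on CPM, and 1.13 and 1.45 on the TMM scale, beside 1.44 and 1.37 over all rows. These sets differ in depth, with a median CPM of 97.5, 29.8 and 10.9 in that order. Among stress-induced rows the CPM fold was 1.13 for HSP90AA1 and 1.21 for hsp70.3, but 1.96 for hspa1b, with a mean of 5.37 CPM. The part of depth in these folds was not tested.

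The library HN72 was singled out after the values were seen. It was the highest of the 6 for 7 of the 12 stress-induced rows (58.3%), namely hsp70l, hsp70.1, hsp70.3, HSP90AA1, HSPB1, dnajb1b and BAG3, and for 3 of the 30 constitutive rows (10.0%), while it was the highest for 9.39% of all 12690 rows. On the TMM scale it was the highest for 9 stress-induced rows (75.0%) and 13 constitutive rows (43.3%), against 18.7% of all rows. The 9 add dnajb1a and HSPH1 to the 7, and the exceptions are hspa1b, hsp90aa1.1 and HSPB8. Some of the 9 led narrowly on that scale. In HN72 dnajb1a had 138.9 CPM against 137.4 in HN74, and HSP90AA1 1853 against 1838 in HN74. HSPH1 had 29.6 CPM in HN72 against 29.3 in HN70. Being highest in HN72 was not particular to stress-induced rows on the TMM scale. There HN72 was also the highest for 6 of 9 chaperonin rows (66.7%) and 4 of 10 mitochondrial rows (40.0%), but 0 of 7 endoplasmic reticulum rows. On CPM it was the highest for 0 rows of each of these 3 lists. All 9 chaperonin rows, and HSPA9 and DNAJA3 of the mitochondrial list, are also in the constitutive list. Their counts are therefore not separate from the constitutive count. Over all 88 members HN72 was the highest for 35 on the TMM scale (39.8%) and for 16 on CPM (18.2%). On CPM HN69 was the highest for 33 members (37.5%), beside 33.4% of all rows. HN70 was the highest for 25 (28.4%), beside 33.9% of all rows.

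The excess in HN72 was small for most rows. Relative to the median of the other 5 libraries, the TMM-scaled level in HN72 had a median ratio of 1.17 over the 12 stress-induced rows, from 0.916 for HSPB8 to 1.49 for hsp70.1. The median ratio was 1.06 over the 30 constitutive rows and also 1.06 over the 9 chaperonin rows, which are among them. It was 1.11 over the 10 mitochondrial rows, 0.969 over the 7 endoplasmic reticulum rows and 1.01 over all gene rows. The stress-induced rows had their lowest TMM-scaled median log2 deviation from the row's mean in HN69, at -0.15, followed by HN71 at -0.13. On CPM the lowest was HN71, at -0.14, and HN69 was at -0.04. Summed over the stress-induced list, TMM-scaled levels were 2432, 2510 and 2424 CPM in HN69 to HN71. They were 2891, 2659 and 2802 CPM in HN72 to HN74, so HN73 and HN74 also lay above HN69 to HN71. On CPM the sums were 2634, 2692 and 2412, then 2802, 2566 and 2591, and that order did not hold. The order on the TMM scale was not particular to the stress-induced list. The list of co-chaperones and regulators taken up below had 3516, 3572 and 3487, then 3758, 3671 and 3638 CPM on that scale. The constitutive list had 13690, 13895 and 14203.5, then 14589, 14159 and 14395 CPM, with HN73 below HN71. The order did not hold for the chaperonin, mitochondrial or endoplasmic reticulum lists. HN72 had 14981460 counts in all, in the middle of the range, and 28.6% of its counts fell on the 2 most counted rows, also in the middle. It had 19726 rows with a count, the second fewest. The part of these in the pattern was not tested, and with columns that carry no label neither treatment nor handling can be told apart from library.

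**Figure D4:**
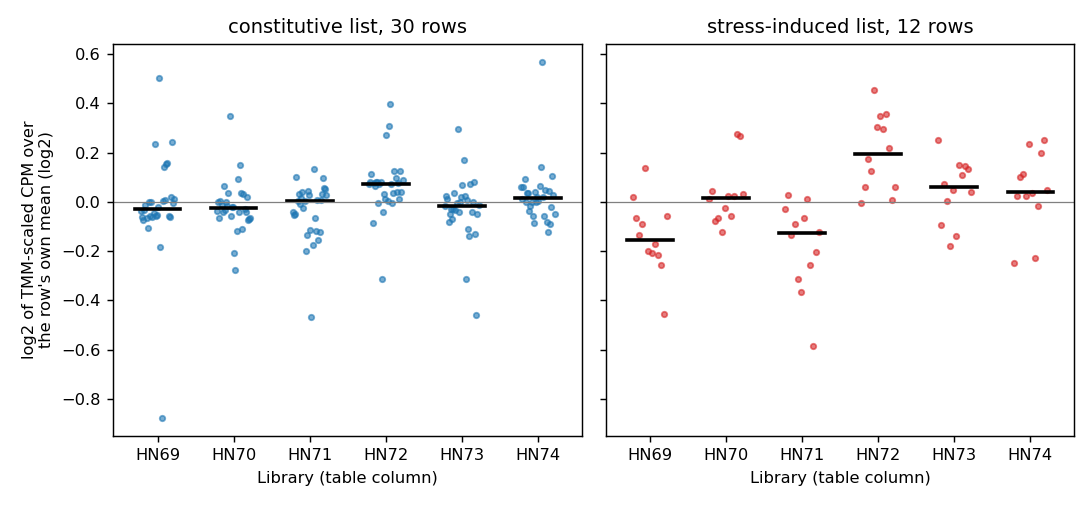
For each library, log2 of the TMM-scaled CPM over the row's own mean for the 30 constitutive rows (left, blue) and the 12 stress-induced rows with a mean of 1 CPM or more (right, red); each point is a row and the black bar is the median. The median of the stress-induced rows lies at 0.20 in HN72 and -0.15 in HN69, while the constitutive medians stay between -0.03 and 0.07.

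Co-chaperones and regulators outside the naming rule were taken from a separate list of 38 rows, of which 37 reached 1 CPM. The heat shock factor HSF1, which drives the inducible genes, had 79.1 to 89.4 CPM, HSF2 24.4 to 33.2 CPM, and HSF4 no count. STIP1, which joins HSP70 to HSP90, ranged from 173.5 to 203.5 CPM, the HSP90 immunophilin FKBP4 from 233.5 to 264.5 CPM, and the HSP90 activator AHSA1 from 121.7 to 137.6 CPM on its main row (ENSDARG00000100317). The median ratio of HN72 to the other libraries was 1.08 on the TMM scale over the 37 rows, and HN72 was the highest for 16 of them (43.2%) on that scale, beside 18.7% of all rows, and for 8 (21.6%) on CPM, beside 9.39%. The immunophilins FKBP4 and FKBP5 were highest there on both scales, while STIP1 was highest there on the TMM scale and in HN69 on CPM. The kinase co-chaperone CDC37 also had its highest value there, 20.96 CPM against a lowest 16.3 CPM. HSF1 had its highest value in HN70 on CPM and in HN73 on the TMM scale, and its 79.7 CPM in HN72 was 82.2 on that scale.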

How the data were processed

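RNA from ZMEL1 cells was sequenced in 6 samples. The zebrafish build GRCz11 and the tools HTSeq, TopHat2 (2.1) and cutadapt are listed in the submitters' processing notes; annotation, strand setting and the handling of reads that fit several genes are not given in the sources used here. The labels name polyA RNA as the molecule, while the extraction protocol describes removal of ribosomal RNA. The authors deposited raw counts per gene in one table, and all 6 value columns were used without a treatment. Of its rows, 29201 (89.8%) were given a symbol. CPM was computed on column totals, with TMM (edgeR 4.0.16) and DESeq2 1.42.0 size factors as alternatives, in R 4.3.3 and Python 3.11.15. No test between groups was made. Calls by fold between libraries were checked on simulated counts that held counting noise alone. The libraries differed by more than counting noise, so the check does not cover the spread seen here.

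The members and lists were chosen with earlier results of these data known. Listed zebrafish symbols absent from the lookup table were matched to the shorter symbol it uses, after the names had been seen. The genes named are all members of the constitutive, stress-induced, endoplasmic reticulum and mitochondrial lists, by value or range, and the chaperonin rows. Also named are the 3 rows with the most reads in each name family, the 5 members with the widest fold between libraries and those with no count. Of the list of co-chaperones and regulators only some rows are named. A few further rows (HSPA2, HSPA12A and others) were added after their values were seen. Levels per transcript length and searches of promoters for heat shock elements were planned and not run, because no gene models or sequences of this build were used.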

Additional observations from a re-analysis of the deposited data

Results flagged for a closer look

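Each member with a mean of 5 CPM or more, and 5 summary values, was examined for a library far from the other 5. Of 76 such sets of 6 values, 2 stood out, and chance marks about 1 set in 20. The row bag6 (ENSDARG00000075892) had 42.04 CPM in HN74, against 49.3 to 50.5 CPM in the other 5 libraries. The row dnajb2, a J protein of neurons and muscle in mammals, had 64.7 CPM in HN71, the lowest of its 6 values. On the TMM scale the bag6 value in HN74 was 45.5 CPM and that in HN69 46.4 CPM. The dnajb2 value in HN71 was 65.0 CPM on that scale, close to 66.3 CPM in HN69 and 66.5 CPM in HN70.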

How the results depend on the processing

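No paired analysis was possible because the table's headers carry no replicate numbers, and with no key from headers to samples the comparison of TGFB1 with vehicle, with its alternatives, was not run. Per-length values were not run. Of 84 alternative values for the summary results, 72 stayed within the spread between libraries, or within 1.5 times for counts. Most of the 72 came from leaving out 1 library at a time, and all values of that kind stayed. Leaving out 1 of 6 libraries can move a median or mean over libraries only a little, so the 72 are no measure of stability. The other 12, all from alternatives of other kinds, are given here. Taking the 4 rows with the most counts out of the total, an alternative chosen after seeing the data, raised the members' share from 1.87% to 3.25%. Restricting the stress-induced list to rows of 1 CPM or more raised its median from 18.03 to 29.8 CPM. The log2 ratio of constitutive over stress-induced reads was 0.94 without the 3 most read constitutive rows and, chosen after seeing the data, 3.31 without HSP90AB1 and HSP90AA1 and 2.81 without hsp70.3. The share of members past the fold was 62.5% when the highest library had to exceed the lowest by 25%, 7.95% at 2-fold and 18.3% with a mean of 5 CPM, beside 78.9%, 16.4% and 23.6% of all rows. The HSPA8 share of HSP70 reads was 79.6% for the main row alone and 80.9% with HSPA2 counted in, both chosen after seeing the data. The share of constitutive rows highest in HN72 was 43.3% under TMM and under DESeq2 size factors, against 10.0% on CPM. Leaving out 1 library at a time gave 87 to 90 members at 1 CPM, a members' share of 1.84% to 1.90%, list medians of 96.1 to 98.98 and 17.8 to 18.4 CPM, a log2 ratio of 2.41 to 2.47, 25.0% to 29.5% of members past 1.5-fold, an HSPA8 share of 83.7% to 84.3%, an HSP90AB1 share of 74.7% to 74.97% and a chaperonin ratio of 56.8 to 58.01. The share past 1.5-fold could only stay at 31.8% or fall, because leaving out a library cannot widen a row's fold. That range is therefore no measure of stability, and the matching shares of all rows are not given. Of 114 folds recomputed for 57 listed rows, 110 stayed on their side of 1.5-fold; dnajb1b fell to 1.44 and hsp70l rose to 1.53 under TMM.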

Other observations

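The row HSPG2, perlecan, which the naming rule takes in though it is no chaperone, had 84.4, 69.2, 69.7, 64.7, 71.4 and 57.9 CPM in HN69 to HN74. DNAJC12, a co-chaperone of aromatic amino acid hydroxylases in mammals, had 7.61 CPM in HN72 against 4.41 to 6.28 CPM in the other libraries. DNAJC9, a histone co-chaperone, had 6.54 CPM in HN72, close to 6.31 CPM in HN73, with a lowest 3.94 CPM in HN69. Both rows were highest in HN72 under TMM as well, with a TMM-scaled fold between libraries of 1.91 for DNAJC12 and 1.86 for DNAJC9. Transcription factor genes of the endoplasmic reticulum stress response were read: XBP1 had 55.4 to 73.2 CPM, atf6 78.5 to 96.1 CPM and atf4b 220.5 to 257.7 CPM. The gene atf4a had 205.5 to 243.5 CPM and DDIT3 31.4 to 43.1 CPM. Targets of that response were read unevenly. DNAJB9 reached at most 0.868 CPM, against 295.0 to 373.6 CPM for HSPA5 and 86.4 to 107.7 CPM for HSP90B1. Whether the response was active was not tested.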
